A study of Mus musculus with 2 samples.

Results

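Cluster 13 of the colon immune cell map was examined, the cells to which the deposited metadata give cluster number 13, which the delta and gamma T cell receptor genes Trdc and Tcrg-C1 and the scavenger receptor gene Cd163l1 mark. It holds 125 of 6886 cells, 76 in the 5XFAD library and 49 in the WT library. The metadata give cluster numbers and no cell type names. The cells came from a sort of live CD45+ cells, CD45 being the surface protein common to leukocytes, from the colons of female mice aged 9 months. The 5XFAD line is a model of Alzheimer disease whose mutant human transgenes are driven by the neuronal Thy1 promoter, and the WT mice were littermates without them. Colons of 3 mice per genotype were pooled into 1 droplet-based 3′-end RNA library, so there is 1 library per genotype. No difference between the genotypes can therefore be tested, mouse, library and genotype cannot be told apart, and every interval below is a 95% interval that covers counting error only.

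Gamma delta T cells carry a T cell receptor made of a gamma and a delta chain in place of the alpha and beta chains of most T cells. The delta gene segments lie inside the alpha locus, so joining of the alpha segments removes the delta genes from that chromosome. One well-known mouse subset, often found in barrier tissues, leaves the thymus already able to make interleukin 17 and carries the interleukin 23 and interleukin 1 receptors and the transcription factors Sox13, c-Maf and PLZF (Zbtb16).

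The cells of cluster 13 held 461370 UMIs (unique molecular identifiers, which count RNA molecules) in 5XFAD and 295527 in WT. The median cell had 6176 UMIs in 5XFAD and 5795 in WT, and 1890.5 and 1867 detected genes. The median share of mitochondrial UMIs was 4.27% and 4.18%. Levels are given as CPM, the UMIs of a gene per 1000000 UMIs of the summed cells, and a gene with 0 UMIs could have reached 6.50 CPM (5XFAD) or 10.2 CPM (WT), the level of 3 counts. The 2 libraries shared 3 cell barcodes among all cells. No doublet caller was run. In cluster 13, 1 WT cell and 0 5XFAD cells had 2500 genes or more. The most genes in any cell were 2498 in 5XFAD and 2697 in WT, and cells with 2500 genes or more were seen in WT alone, in every class.

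The delta chain gene was found in part of cluster 13 and the alpha chain gene in most of the rest. Trdc, the constant region of the delta chain (chr14:54142851-54148868, plus strand, GRCm38), was detected in 44 of 76 cells of 5XFAD (57.9%, 46.0 to 69.1) and in 28 of 49 cells of WT (57.1%, 42.2 to 71.2; exact binomial intervals). Trac, the constant region of the alpha chain on the same chromosome (chr14:54220521-54224206), was detected in 32 and 17 cells. The 2 genes were seldom found in the same cell. In 5XFAD, 39 cells had Trdc alone, 27 had Trac alone, 5 had both and 5 had neither. In WT these numbers were 25, 14, 3 and 7. The name gamma delta T cells therefore did not cover the whole of cluster 13, and the cells are called by their cluster number here.

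Trdc was absent from some cells and ran from few to many UMIs in the others. It had 0 UMIs in 32 cells, 1 UMI in 2 cells and 2 or more in 42 cells of 5XFAD, and 0, 1 and 2 or more in 21, 3 and 25 cells of WT. Among cells with Trdc, the median was 10 UMIs (1 to 24) in 5XFAD and 8 (1 to 40) in WT. The background in B cell-like cells was low, and its source was not tested. Trdc was found in 4 of 2364 B cell-like cells of 5XFAD (0.169%) and 6 of 2538 of WT (0.236%). Trac was found in 2.24% and 1.06% of them, at medians of 5086.5 and 4783.5 UMIs per cell. With each cell thinned to 3000 UMIs, which left out 1 and 2 cells, Trdc remained in 54.7% and 55.3% of cluster 13.

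**Figure D1:**
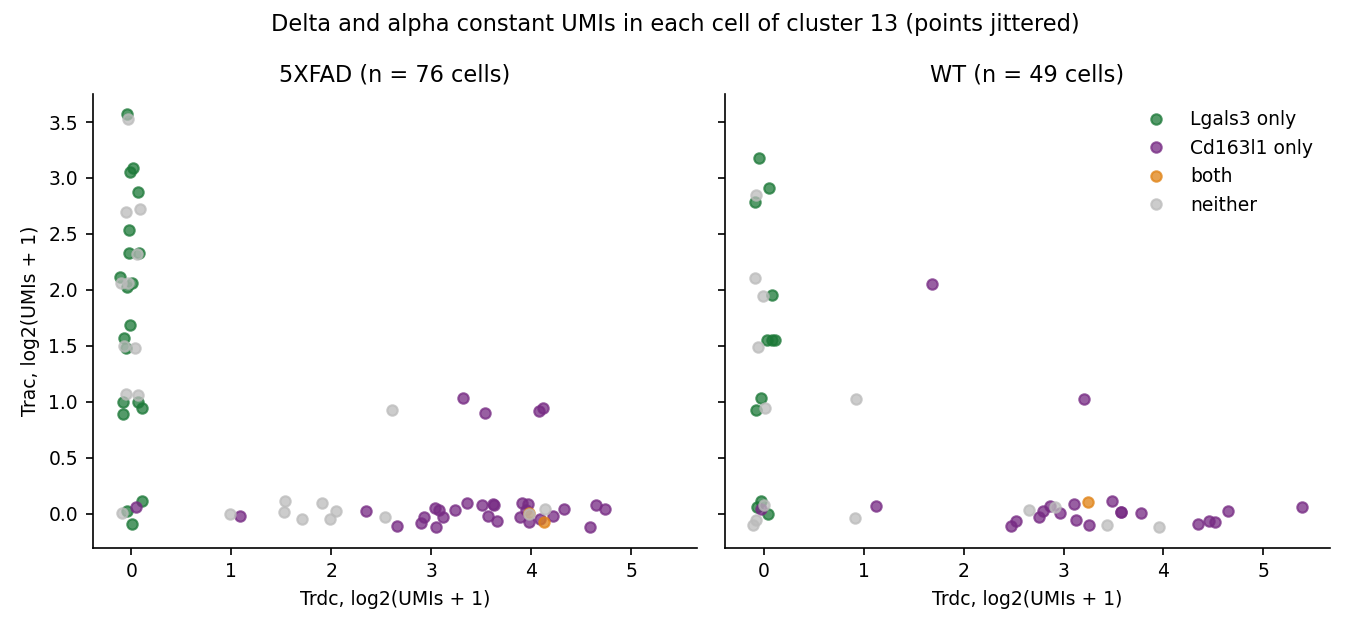
Each point is 1 cell of cluster 13, placed by its Trdc and Trac UMIs on a log2(UMIs + 1) scale with a small random shift, and coloured by detection of Cd163l1 or Lgals3. Cells lie along the 2 axes, with 5 of 76 (5XFAD) and 3 of 49 (WT) holding both receptor genes; Cd163l1 lies almost wholly among Trdc cells and Lgals3 among cells without Trdc.

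The V segment reads named the receptor of the Trdc cells more closely, as far as 3′-end libraries reach it: only some receptor transcripts give a read in the V segment, so a missing V segment is not an absent one. The segments in this paragraph were chosen after their values were seen. Trdv4, a delta V segment, had 246 UMIs in 34 cells of 5XFAD and 106 UMIs in 19 cells of WT, and 33 and 18 of these cells also had Trdc. Tcrg-V6, a gamma V segment, had 49 UMIs in 22 cells and 10 UMIs in 7 cells, and 20 and 6 of these cells also had Trdv4. All other cells together held 5 UMIs of Tcrg-V6 in 5XFAD and 3 in WT. Trdv4 was less restricted: cells outside cluster 13 held 194 and 88 UMIs, of which 126 and 70 lay in cluster 9, although Trdc had 3 and 5 UMIs in that cluster. Trgv2 had 22 and 26 UMIs, and Tcrg-V4 had 3 and 7. The ends of the 2 V segments that marked these cells are shown because they identify the chains that were detected. They are the last 90 bases of each annotated V exon, 5′ to 3′, with an in-frame TGT, the codon of the cysteine that opens the variable loop, in capitals (Gencode vM21, GRCm38, plus strand; Trdv4 at chr14:54075426-54075515 and Tcrg-V6 at chr13:19190840-19190929).
Trdv4: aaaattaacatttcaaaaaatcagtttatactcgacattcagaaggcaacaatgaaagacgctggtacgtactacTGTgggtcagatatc
Tcrg-V6: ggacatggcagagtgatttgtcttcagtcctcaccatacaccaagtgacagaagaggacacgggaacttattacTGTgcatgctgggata

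Of the constant genes, Tcrg-C1 had 130 UMIs in 46 cells of 5XFAD and 67 UMIs in 35 cells of WT, Tcrg-C2 had 27 and 15 UMIs, Tcrg-C4 had 30 and 14, and Tcrg-C3 had 1 and 0. Tcrg-C1, Tcrg-C2 and Tcrg-C3 are near-identical copies, as are Trbc1 and Trbc2, so how their reads were divided is uncertain. A UMI of any gamma or delta constant gene was present in 60 of 76 (78.9%) and 41 of 49 (83.7%) cells of cluster 13. The share was 71.2% and 76.2% in cluster 11, 21.8% and 16.8% in cluster 10, 2.26% and 2.63% in cluster 8, 13.3% and 1.64% in cluster 14, and 0.465% and 0.591% in the B cell-like clusters. The shares of clusters 13 and 11 thus lay close at 1 UMI. At 2 UMIs they were 65.8% and 75.5% in cluster 13 against 54.1% and 44.0% in cluster 11, and Trdc alone was found in 29.7% and 25% of cluster 11 at 1 UMI. Beta constant reads did not separate the receptor types either: Trbc2 stood at 735 and 576 CPM in the Trdc cells and at 849 and 797 CPM in the Trac cells without Trdc.

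Cells with Trdc and cells with Trac but no Trdc differed in a small set of genes. The split was made after the data had been seen and uses cells that were clustered together, so it is a description with no test. The median depth was 6016.5 UMIs (5XFAD) and 5710.5 UMIs (WT) in Trdc cells, and 6651 and 7119 UMIs in Trac cells. Of 2748 genes with at least 30 UMIs, 25 were at least 2-fold higher in Trdc cells in both libraries and 21 were at least 2-fold higher in Trac cells in both, on a log2(CPM + 5) scale.

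Cd163l1, a scavenger receptor of the CD163 family (chr7:140218267-140231145, plus strand), belonged to the Trdc cells. It had 159 UMIs in 33 Trdc cells of 5XFAD and 83 UMIs in 22 Trdc cells of WT, and 0 UMIs in the 27 and 14 Trac cells. Its level of 609 and 504 CPM was thus at least 35.4-fold and at least 16.2-fold higher than the level of 3 counts in the Trac cells of each library. Trdv4 was likewise at 0 in the Trac cells. Cd247, the zeta chain of the CD3 complex, had 195 and 176 CPM in Trdc cells against 34.4 and 41.4 CPM in Trac cells. Jun, a partner in the AP-1 dimer, had 383 and 625 CPM against 97.6 and 145 CPM. Apoe, an apolipoprotein, also led this side, but only 6 and 4 Trdc cells held it and the highest cell in each library held 26 UMIs.

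Lgals3, which encodes galectin-3, belonged to the other cells. It had 97 UMIs in 17 Trac cells of 5XFAD and 72 UMIs in 9 Trac cells of WT (557 and 746 CPM), against 2 and 1 UMIs in the Trdc cells (7.66 and 6.07 CPM). Only 2 and 1 cells held both Cd163l1 and Lgals3. Ctla2a, a cysteine protease inhibitor, had 207 and 321 CPM in Trac cells against 23.0 and 18.2 CPM in Trdc cells. Lck, the kinase that starts T cell receptor signalling, had 172 and 186 CPM against 7.66 and 24.3 CPM. Of 10 compared checkpoint and costimulation genes, 7 were higher in Trac cells in both libraries and 1 was higher in Trdc cells in both. The 2 past 2-fold in both libraries were Cd40lg and Cd28, both higher in Trac cells, beside 0.764% of all compared genes. Cd40lg, the CD40 ligand, had 499 and 186 CPM against 95.7 and 42.5 CPM in Trdc cells. Cd28, a costimulatory receptor, had 333 and 652 CPM against 103 and 243 CPM, and Icos, another, had 1796 and 1740 CPM against 701 and 868 CPM. The coreceptors of helper and killer T cells were at or near 0, since cluster 13 as a whole held 0 UMIs of Cd4, 1 UMI of Cd8a and 0 UMIs of Foxp3, the regulatory T cell factor. In cluster 8, Cd4 had 83 and 106 UMIs and Foxp3 213 and 129.

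The type 17 lists did not split by kind of cell as a group. Of 24 compared members, 7 were higher in Trdc cells in both libraries, 8 were higher in Trac cells in both, and 9 went opposite ways. Zbtb16 was the 1 member past 2-fold in both libraries. Il23r, the interleukin 23 receptor, had 122 and 140 CPM in Trdc cells and 86.1 and 51.8 CPM in Trac cells, with overlapping intervals. Rora, a type 17 regulator, had 1547 and 1766 CPM against 1647 and 2113 CPM, and Cxcr6, a homing receptor of tissue T cells outside those lists, 605 and 649 CPM against 591 and 694 CPM. Zbtb16, the factor that gives innate-like T cells their programme, was found in 16 and 12 Trdc cells and in 17 and 13 Trac cells. Its level of 189 and 331 CPM in Trac cells was above the 91.9 and 152 CPM of Trdc cells in both libraries.

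**Figure D2:**
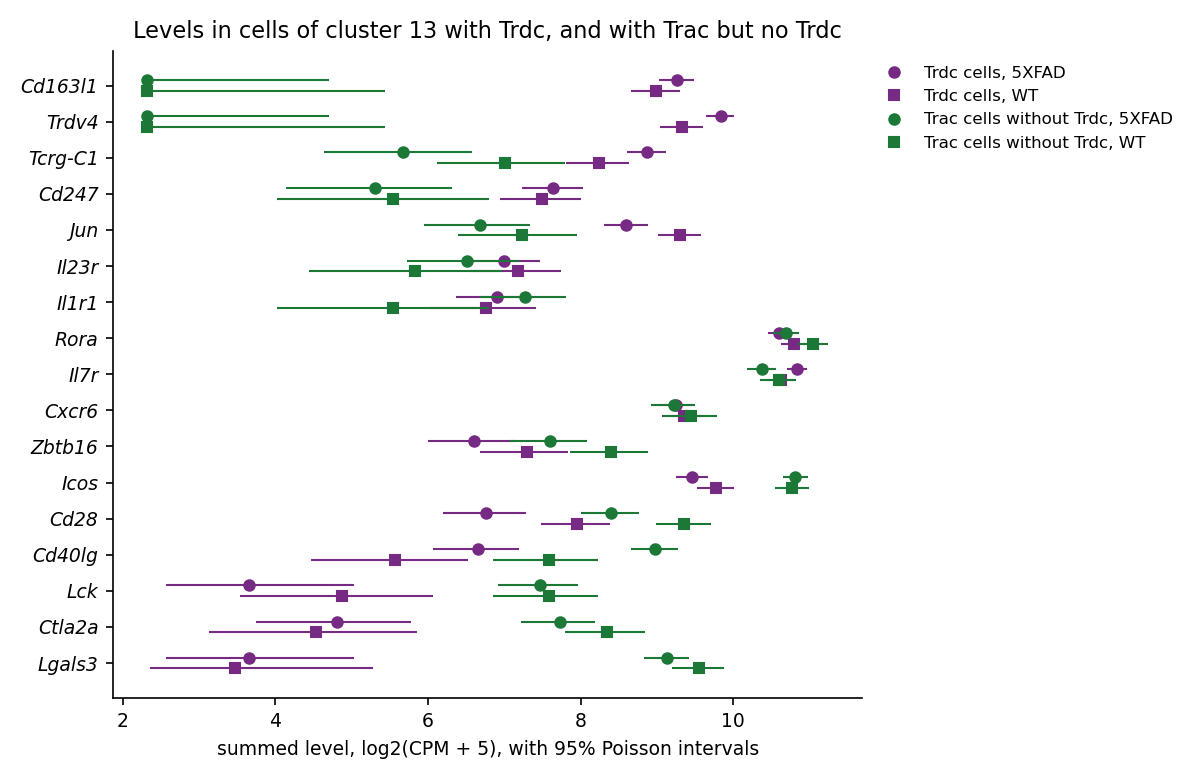
Summed level of 17 genes on a log2(CPM + 5) scale with Poisson intervals, in cells of cluster 13 with Trdc (44 and 28 cells) and with Trac but no Trdc (27 and 14 cells), circles for 5XFAD and squares for WT. Cd163l1 and Trdv4 stand at 0 in Trac cells and Lgals3 stands near 0 in Trdc cells, while Rora and Cxcr6 lie close together.

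Seen against clusters 8, 10, 11, 14 and 16, cluster 13 as a whole was led by Cd163l1, Ly6g5b, Tmem156, Trdc and Ppp1r14c. These are genes of cells that were clustered on them, so their excess is a description. Cd163l1 had 364 and 284 CPM against at most 1.41 and 16.3 CPM in those clusters. Trdc had 997 and 968 CPM against 181 and 146 CPM in cluster 11, the next highest. Zbtb16 had 139 and 210 CPM against 40.0 CPM in cluster 16 (5XFAD) and 20.9 CPM in cluster 11 (WT). Actn2, a sarcomere alpha-actinin, had 347 and 288 CPM against 119 and 94.8 CPM in cluster 10. Klrk1, which encodes the activating receptor NKG2D, had 819 and 927 CPM against 302 and 345 CPM in cluster 10, and Ikzf3, the lymphoid factor Aiolos, 633 and 640 CPM against 191 and 250 CPM. The other leading genes were Mmp25, Lgals3, Slc7a6os, Calca, Tcrg-C1 and Rbpms2. Across 4174 genes, the rank correlation of levels (Spearman) with cluster 13 was 0.83 and 0.82 for cluster 10. It was between 0.67 and 0.79 for clusters 8, 11, 14 and 16. Outside the compared clusters, cluster 12 had 0.82 and 0.79 and cluster 9 had 0.80 and 0.80, close to cluster 10. Between the 2 libraries of cluster 13 it was 0.85. Each correlation with another cluster is within 1 library, whose clusters share its preparation, and genes are not independent replicates.

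**Figure D3:**
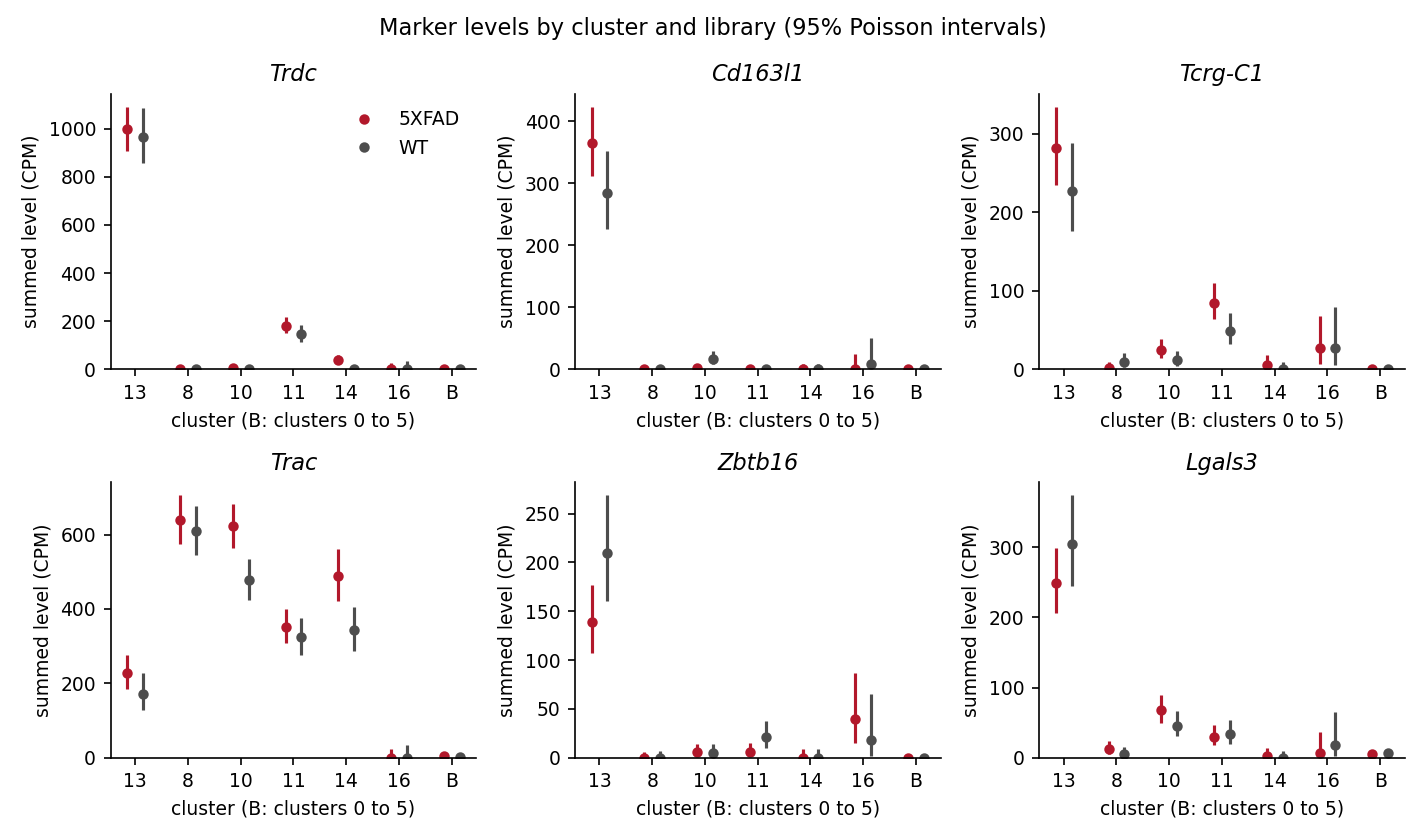
Summed level in CPM, with Poisson intervals, of 6 genes in cluster 13, in 5 compared clusters and in the B cell-like clusters 0 to 5, by library. Trdc, Cd163l1, Tcrg-C1, Zbtb16 and Lgals3 stand highest in cluster 13 in both libraries, while Trac stands at 228 and 173 CPM there and is higher in clusters 8, 10, 11 and 14.

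The type 17 machinery was present in cluster 13 and shared mainly with cluster 16, the ILC3-like cluster, which held at most 1 UMI of Cd3e. Il23r was at 113 and 112 CPM in cluster 13, at 153 and 164 CPM in cluster 16, and at no more than 18.4 CPM in clusters 8 and 10, with 0 UMIs in clusters 11 and 14. Il1r1, the interleukin 1 receptor, had 128 and 98.1 CPM against 193 and 182 CPM in cluster 16. Sox13, a factor of fetal-type gamma delta T cells, had 7 and 10 UMIs in 6 and 7 cells of cluster 13 and 0 UMIs in clusters 8, 9, 10, 11, 12, 14 and 16 and in the B cell-like clusters. It fell under the minimum of 20 UMIs for a ratio and is named after its values were seen. Blk, a Src-family kinase used by interleukin 17-making gamma delta T cells, had 62.9 and 50.8 CPM, but B cells use it too and it stood at 122 and 135 CPM in the B cell-like clusters. Tnfsf11, which encodes RANKL, had 882 and 934 CPM in cluster 13, 388 and 369 CPM in cluster 10 and 1600 and 1301 CPM in cluster 16. Il7r, the receptor for the survival cytokine interleukin 7, was found in all cells, 76 of 76 and 49 of 49.

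Il17a, Il17f, Il22 and Csf2 were rare, while other members of the type 17 cytokine list were common: Tnfsf11 was found in 73.7% and 85.7% of cells, Ltb, a subunit of lymphotoxin, in 77.6% and 71.4%, and Tgfb1 in 67.1% and 57.1%. Il17a had 36 UMIs in 8 of 76 cells of 5XFAD and 3 UMIs in 2 of 49 cells of WT. Its neighbour Il17f had 0 UMIs in both libraries of cluster 13, although it had 39 and 15 UMIs in cluster 10 and 43 and 13 UMIs in cluster 16. Il22 had 2 and 8 UMIs in 2 cells and 1 cell, against 2609 and 325 UMIs in cluster 16. Csf2, which encodes GM-CSF, had 68 UMIs in 7 cells and 3 UMIs in 2 cells. No cell held both Il17a and Csf2. The cells with Il17a were not only the Trdc cells: 3 of 8 in 5XFAD and 1 of 2 in WT had Trdc. Of the 20 type 1 and cytotoxic genes, 6 were measured. Klrk1 was found in 84.2% and 89.8% of cells, Nkg7, a granule protein of cytotoxic cells, in 51.3% and 59.2%, and Fasl, the Fas ligand, in 47.4% and 40.8%. Eomes and Gzma had 0 UMIs, Ifng had 12 and 1 and Tbx21 had 21 and 15. Itgae, the integrin of T cells within the epithelium, was at 0 in both libraries, against 42 and 49 UMIs in cluster 8. Il17f, Il22, Ifng, Tbx21, Itgae, Eomes and Gzma are named after their values were seen.

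Cluster 13 made up 2.21% (1.74 to 2.76) of all cells in 5XFAD and 1.42% (1.05 to 1.88) in WT, a log2 ratio of 0.63 (0.10 to 1.18). It made up 76 of 499 cells of clusters 8, 10, 11, 13 and 14 in 5XFAD, or 15.2% (12.2 to 18.7). In WT it made up 49 of 415, or 11.8% (8.86 to 15.3). The log2 ratio of these last shares was 0.37, and its interval of -0.17 to 0.92 includes 0. Both kinds of cell contributed to the count. Trdc cells made up 1.28% (0.930 to 1.71) of the 5XFAD library and 0.813% (0.541 to 1.17) of the WT library, and Trac cells without Trdc 0.784% (0.517 to 1.14) and 0.407% (0.222 to 0.681). The composition of cluster 13 was close, with Trdc in 57.9% and 57.1% of its cells. Over all cells, the shares are counts of sorted cells and move with every other cluster.

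Between the libraries, 204 of 4174 measured genes (4.89%) were at least 2-fold higher in 5XFAD in cluster 13 and 172 (4.12%) at least 2-fold lower, measured meaning at least 20 UMIs over both libraries. The median log2 ratio of all measured genes was -0.002. The T cell receptor and CD3 list had 11 measured members, all higher in 5XFAD by 0.04 to 0.84, with 0 past 2-fold. Without the cells with a UMI of any of 4 B cell markers, 4 of the 11 turned lower (Trdc, Tcrg-C1, Tcrg-C2 and Cd247), with Trdc at -0.36, outside its interval. Trbc1 had the largest ratio of the 11 over all cells, with 659 CPM in 5XFAD and 369 CPM in WT. Over all cells, Trdc was at 997 and 968 CPM (log2 ratio 0.04, -0.17 to 0.26). Cd163l1 stood at 364 and 284 CPM (0.36, -0.03 to 0.75), and its interval includes 0.

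The type 17 genes did not move together. Of 27 measured members of the 3 type 17 lists, 15 were higher and 12 lower in 5XFAD, with a median log2 ratio of 0.05. Past 2-fold were 2 of the 27 higher and 1 lower, beside 4.89% and 4.12% of all genes. The regulators had a median of -0.24, with Zbtb16 at -0.60 (-1.12 to -0.07), Rora at -0.24 (-0.40 to -0.08) and Nfkbiz, an interleukin 17 cofactor, at 0.80 (0.42 to 1.19). Rora was lower in 5XFAD in the 5 other classes with enough UMIs too, at -0.70 to -0.13. Nfkbiz was higher in 2 of 6 other classes, and Zbtb16 had too few UMIs elsewhere for a ratio. The receptors had a median of 0.10, with Il23r at 0.01 (-0.64 to 0.69) and Il1r1 at 0.38 (-0.28 to 1.08). The cytokines held the extremes, and each rested on few cells. Csf2 was at 147 and 10.2 CPM, but 1 cell of 5XFAD held 58 of its 68 UMIs, and without the highest cell of each library its log2 ratio went from 3.86 to 2.68 on few UMIs. It was 1.14 in cells with a gamma or delta constant UMI and 1.34 in Trdc cells. Csf2 was also higher in 5XFAD in cluster 9, its main source here, at 756 and 224 CPM. Il17a was at 78.0 and 10.2 CPM (2.94, 1.28 to 5.29), with 22 of 36 UMIs in 1 cell. Areg, which encodes amphiregulin, was at 17.3 and 84.6 CPM (-2.29), but 1 WT cell held 23 of 25 UMIs, and without the highest cell of each library the ratio turned to 0.66.

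Tnfsf11 was level over all cells of cluster 13 (-0.08, -0.31 to 0.14), but the Trdc and Trac cells went opposite ways. In Trdc cells it had 1191 CPM in 5XFAD and 904 CPM in WT (0.40, 0.11 to 0.69). In Trac cells it had 470 CPM in 5XFAD and 1212 CPM in WT (-1.36, -1.79 to -0.95). The difference between these ratios was not tested, since each side is 1 library, and Tnfsf11 was picked after its values were seen. The Trac side had 27 and 14 cells, and single cells of cluster 13 held up to 32 (5XFAD) and 30 (WT) Tnfsf11 UMIs. Without the cells with a UMI of any of 4 B cell markers, the ratio over all cells was -0.29. Without those with Cd79a, Cd79b or Ms4a1 it was -0.31, just outside its interval.

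Cxcl10 is a chemokine that interferons induce and that draws CXCR3-bearing cells. By the interval bound nearest 0, it was second to Csf2 among genes that passed the filters of level and cell number used to name genes. It had 261 UMIs in 28 of 76 cells of 5XFAD and 31 UMIs in 9 of 49 cells of WT, or 566 and 105 CPM (2.43, 1.89 to 3.02). Both kinds of cell had it: 632 against 109 CPM in Trdc cells (2.53, 1.83 to 3.32) and 413 against 82.9 CPM in Trac cells (2.32, 1.26 to 3.58). The highest cell held 65 UMIs in 5XFAD and 12 in WT, and without these the ratio was 2.70. Without the cells with a UMI of any of 4 B cell markers it was 1.47. In the 5 other classes with enough UMIs (clusters 8, 10, 11 and 16 and the B cell-like clusters), the ratio ran from -2.62 to 0.79 and 1 of the 5 was higher in 5XFAD; whether these differ from cluster 13 was not tested. Outside the T cell clusters, cluster 12 had 304 and 84.3 CPM of Cxcl10, a pair picked after its values were seen. A Cxcl10 UMI was found in 10 of 2364 and 14 of 2538 B cell-like cells.

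Other interferon genes leaned the same way by less. Of 10 measured members of the interferon list, 7 were higher and 3 lower in 5XFAD, with a median of 0.55, and 2 of the 10 were past 2-fold on the higher side, beside 4.89% of all genes. Irf7, the interferon regulatory factor 7, had 262 and 186 CPM (0.49, 0.02 to 0.98), Isg15 154 and 112 CPM (0.46, -0.15 to 1.11) and Igtp, an interferon-induced GTPase, 134 and 88.0 CPM (0.61, -0.07 to 1.33). Irf1 was level at 282 and 291 CPM. Without the cells with a UMI of any of 4 B cell markers, Irf7 was at 0.27, Isg15 at 0.10, Igtp at 1.07 and Irf1 at -0.15. In other classes with enough UMIs, Irf7 was higher in 5XFAD in 4 of 5 (-0.01 to 0.67), Isg15 in 2 of 6 and Igtp in 1 of 5. The 2 members past 2-fold were Irf9 (1.09) and Bst2 (1.03), and both are named after their values were seen. Irf7 was also higher in cluster 13 than in clusters 8, 10, 11, 14 and 16 in both libraries, where its highest level was 110 and 73.5 CPM, in cluster 10.

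The 250 bases before the start of Cxcl10 and of Il17a are shown because these genes stood apart between the libraries by their counting intervals. For Il17a this rested on 36 UMIs in 8 cells and 3 UMIs in 2 cells. They are also textbook genes of the interferon response and of the type 17 programme. The sequences are RefSeq's (GRCm38.p6), 5′ to 3′ on the gene's strand, Cxcl10 at chr5:92348890-92349139 (minus) and Il17a at chr1:20730655-20730904 (plus). Capitals mark matches, on either strand, to GAAANNGAA (the core of the interferon-stimulated response element), TGANTCA (AP-1) and AGGTCA (a nuclear receptor half-site); no matches overlap.
Cxcl10: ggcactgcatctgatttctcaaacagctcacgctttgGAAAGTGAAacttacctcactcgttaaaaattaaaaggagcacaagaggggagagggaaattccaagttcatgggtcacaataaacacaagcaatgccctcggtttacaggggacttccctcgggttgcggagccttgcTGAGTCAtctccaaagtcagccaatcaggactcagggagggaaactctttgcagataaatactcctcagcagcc
Il17a: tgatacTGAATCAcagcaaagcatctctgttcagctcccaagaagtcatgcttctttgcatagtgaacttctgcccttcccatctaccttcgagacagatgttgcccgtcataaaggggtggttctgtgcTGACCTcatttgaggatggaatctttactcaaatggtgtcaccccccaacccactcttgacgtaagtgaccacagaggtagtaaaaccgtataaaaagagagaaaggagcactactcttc
Cxcl10 has 1 match to GAAANNGAA, 213 to 205 bases before the start, and 1 to TGANTCA, 74 to 68 bases before it. Il17a has 1 match to TGANTCA and 1 to AGGTCA, the latter on the opposite strand 120 to 115 bases before the start. Of 32851 such windows over all genes, 7.13% hold GAAANNGAA, 6.75% hold TGANTCA and 14.02% hold AGGTCA, so a match is common and says nothing of binding in these cells. No other motifs were searched for, so the unmarked bases may hold sites of other factors.

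**Figure D4:**
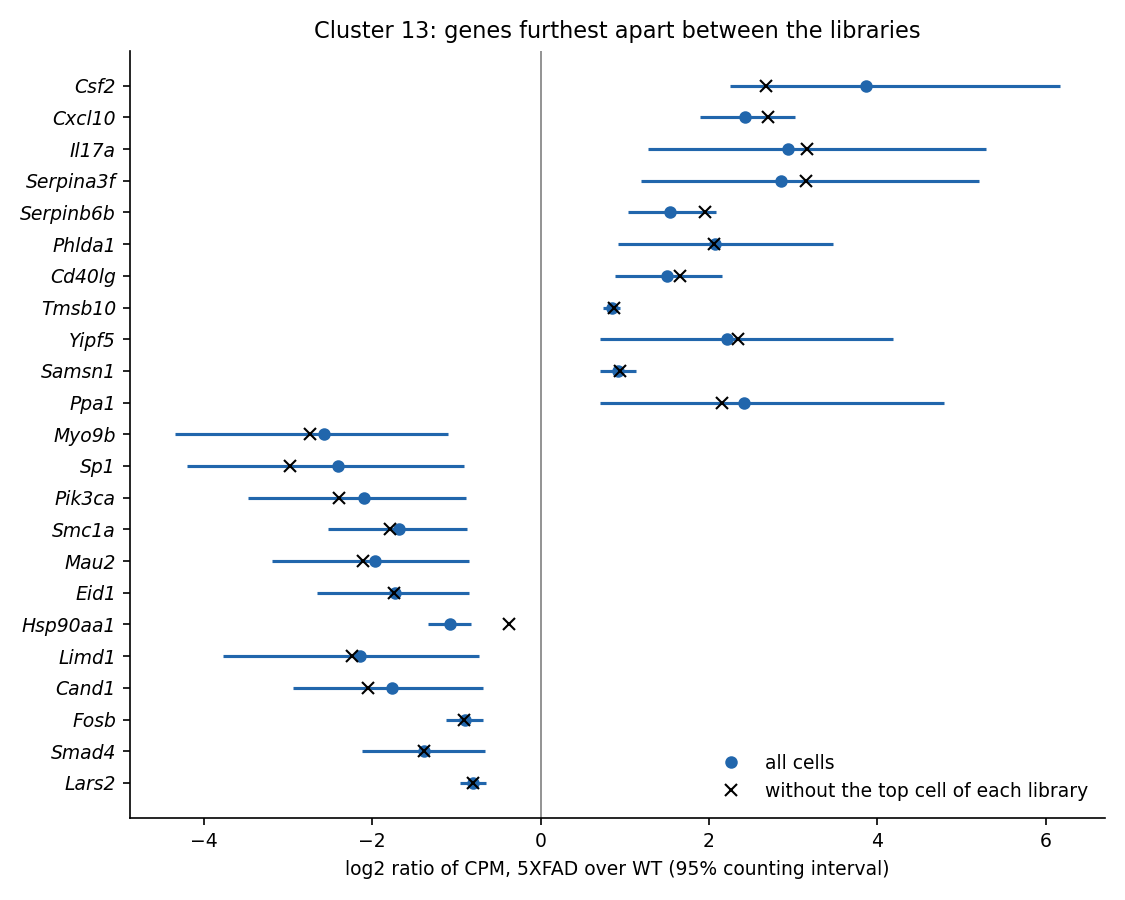
Log2 ratio of CPM in cluster 13, 5XFAD over WT, with counting intervals, for 11 of the genes furthest above 0 and the 12 furthest below. The ranking is by the interval bound nearest 0, among genes that passed the filters of level and cell number used to name genes. Areg, found in 3 WT cells, and Cd79a did not pass them and are not shown. Crosses give the ratio without the highest cell of each library. All 23 keep their side of 0 without those cells, Csf2 moves furthest, from 3.86 to 2.68, and Hsp90aa1 moves from -1.08 to -0.38, outside its interval.

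Among the other genes that were higher in 5XFAD, Cd40lg had 258 and 91.4 CPM in cluster 13 (1.5, 0.88 to 2.16), in 32 and 14 cells. It was higher in 5XFAD within the Trac cells (1.42, 0.68 to 2.24), and the 3 other classes with enough UMIs were higher too, by 0.83 to 1.75. Serpina3f, a serine protease inhibitor, had 34 UMIs in 11 cells against 3 UMIs in 3 cells (2.86, 1.19 to 5.21), of which 5 and 2 UMIs lay in Trdc cells. It was followed by Serpinb6b, another inhibitor of that family, with 384 and 132 CPM (1.54, 1.03 to 2.08). Phlda1 had 99.7 and 23.7 CPM (2.07, 0.92 to 3.47). Ctla4, an inhibitory receptor, had 225 and 118 CPM (0.93, 0.36 to 1.53), and its ratio was 1.55 without the cells with a UMI of any of 4 B cell markers. Of the other named genes on this side, Tmsb10 and Samsn1 were higher in 5XFAD in all 6 other classes (clusters 8, 10, 11, 14 and 16 and the B cell-like clusters) as well. Yipf5 and Ppa1 had 4 and 3 UMIs in WT.

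On the lower side, Cd28 had 212 and 409 CPM (-0.95, -1.35 to -0.55; -0.55 without the cells with a UMI of any of 4 B cell markers), and was lower in Trdc cells (-1.23, -1.99 to -0.49) and in Trac cells (-0.97, -1.51 to -0.43). Hsp90aa1, a heat shock chaperone, had 496 and 1049 CPM (-1.08), but 1 WT cell held 129 of 310 UMIs, and without the highest cell of each library the ratio was -0.38. Fosb, an immediate early gene, had 676 and 1262 CPM (-0.90, -1.12 to -0.68), and Jun was lower as well in Trdc cells (-0.71, -1.12 to -0.30). Fosb, Smad4 and Lars2 were lower in all 6 other classes too. Smad4, which relays TGF-beta signals, had 58.5 and 152 CPM (-1.38, -2.13 to -0.66). Myo9b, Sp1, Pik3ca, Smc1a, Mau2, Eid1, Limd1 and Cand1 filled the rest of the lower list, each with 5 to 20 UMIs in 5XFAD and 17 to 41 in WT. Of 27 measured immediate early and heat shock genes, 10 were higher and 17 lower, with a median of -0.13 and with Junb at 0.38 (0.27 to 0.48).

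Receptors for nerve-derived signals were few. Ramp3, a partner protein of the calcitonin family receptors, had 1790 and 1215 CPM (0.56, 0.38 to 0.74), and it was higher in 5XFAD in all 6 other classes as well, by 0.20 to 0.47. Ramp1, the partner that makes the CGRP receptor, had 334 and 362 CPM (-0.12, -0.48 to 0.25), and was at 280 and 482 CPM in cluster 16 but at no more than 66.5 CPM in clusters 8, 10, 11 and 14. Calca, which encodes the CGRP precursor, had 77 and 28 UMIs in 11 and 6 cells, against 624 and 329 UMIs in cluster 9.

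The remaining lists held genes on both sides. Of the 14 measured gamma delta subset markers, 7 were higher and 7 lower, with a median of 0.00 and Aqp3 past 2-fold (1.19, -0.06 to 2.65). Among them, Lgals3 was at 249 and 305 CPM (-0.29, and 0.84 without the cells with a UMI of any of 4 B cell markers), Cd27 at 113 and 132 CPM (-0.23), S100a4 at 1350 and 1242 CPM (0.12) and Il2rb at 505 and 565 CPM (-0.16). Of 15 measured residency and trafficking genes, 6 were higher and 9 lower (median -0.13), with Cxcr6 at -0.14 and Rgs1 at 0.28, and past 2-fold were Cxcr4 (1.06) and Klf2 (-1.84). Of 6 measured type 1 and cytotoxic genes, 1 was higher. Of 14 NF-kB genes, 8 were higher and 6 lower (median 0.03). Of 10 checkpoint and costimulation genes, 5 were higher and 5 lower (median 0.05), and past 2-fold were Cd40lg and Pdcd1 (1.43). Of 13 glycolysis and hypoxia genes, 6 were higher and 7 lower (median -0.09), with Tpi1 past 2-fold (1.23). Of 8 lipid handling genes, 2 were higher and 6 lower (median -0.26). Past 2-fold on the lower side were 2 of the 8, beside 4.12% of all genes, with Acsl4 at -1.02 and the lowest at -1.54. Of 42 nuclear oxidative phosphorylation genes, 32 were higher, with a median of 0.20 and Sdhb past 2-fold (1.32). The members named by rule, Atp5md, Cox7c, Cox8a and Atp5e, were higher in 5XFAD in all 6 other classes as well. Each had a larger ratio there than in cluster 13. Cox7c was at 0.38 in cluster 13 and 0.41 to 0.70 in the others, and Cox8a at 0.01 and 0.37 to 0.59. Atp5e was at 0.39 in cluster 13 and 0.45 to 0.62 in the others, and Atp5md at 0.65 and at least 0.72. Cxcr4, Klf2, Pdcd1, Tpi1 and Sdhb are named after their values were seen. The nuclear oxidative phosphorylation genes are short, with a median transcript length of 865 bases against 3452.5 bases for all. Across 4154 genes the ratio was lower for longer transcripts (Spearman -0.22, across genes, which are not independent). The part of length in these ratios was not tested.

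Markers of other cells also moved between the libraries. A UMI of Cd79a, Cd79b or Ms4a1 was present in 8 of 76 cells of 5XFAD (8 UMIs) and in 13 of 49 cells of WT (34 UMIs, 17 in 1 cell). Cd79a, with 3 and 19 UMIs, had the lowest ratio of all measured genes (-3.31, -5.71 to -1.54), and is named after its values were seen. The 7 B cell markers summed to 225 CPM in 5XFAD and 673 CPM in WT, with Ms4a1 at 0 in 5XFAD, and to 20549.5 and 18698 CPM in the B cell-like clusters. The same direction was seen in 4 of the 5 compared clusters; cluster 16 had 1033 and 910 CPM. The 8 myeloid markers summed to 182 and 210 CPM, with Itgam and S100a8 at 0 in both, and the 8 epithelial markers to 23.8 and 3.38 CPM. The 10 ILC3 markers, which include Il23r and Il1r1, summed to 1209 and 1249 CPM against 20340.5 and 5588 CPM in cluster 16. The part of these cells in the ratios above was not tested, beyond the ratios given without the cells with a UMI of any of 4 B cell markers.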

How the data were processed

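Per the labels, live CD45+ colon cells from 3 pooled mice per genotype gave 1 library each (group, age and pooling as labelled). Cell Ranger 6.0.1 and mm10 are named, per the submitters' processing notes; cell filters and clustering: not given in the sources used here. In the expression table, the authors deposited natural log values, ln(1 + counts per 10000 UMIs), and metadata with each cell's total count, genes detected, percent of mitochondrial UMIs and cluster. Library AD was taken as 5XFAD, being the one that is not WT. Inverting the log gave counts: 11758401 of 11758401 nonzero values were whole within 1e-06. UMIs were summed per cluster and library and scaled to CPM. Ratios carry exact conditional binomial intervals, levels Poisson and shares Clopper-Pearson intervals, all at 95% (SciPy 1.17.1, NumPy 2.4.6, pandas 2.3.3, Python 3.11.15). The ratio interval was tried on simulated Poisson counts, the model it assumes, so that trial does not cover UMIs clumped in single cells. UMIs without replicates give no test.

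Genes were named by rule: receptor genes and Cd163l1; 15 leading genes over the compared clusters; 12 per direction by the bound nearest 0, with at least 20 UMIs, 50 CPM and 5 cells in the higher library and 20% of the highest class level; members of the type 17 and subset lists; and up to 4 of each other list. Some items are not reported here. Cells, lists and rule were chosen with earlier results of these data known. Alternatives concerned scaling, cell filters, minimum UMIs and single cells.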

Additional observations from a re-analysis of the deposited data

How the results depend on the processing

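With at least 50 UMIs, 36 genes were 2-fold higher and 28 lower in 5XFAD in cluster 13, and with 1 UMI in each library 801 and 1126, so these counts follow the depth. With Trdc cells only, a choice made after seeing the data, 159 were higher and 110 lower. The share of 5XFAD cells with a gamma or delta constant gene was 65.8% at 2 UMIs. Other scaling, per-cell means, and leaving out cells with many genes or B cell markers (also with Cd79a, Cd79b and Ms4a1 as the only markers, chosen after seeing the data, where Cxcl10 was 1.64 and Trdc -0.26) kept both counts within 1.5 times, and the type 17 median lay between -0.0081 and 0.14. Areg turned to 1.41 in cells with a gamma or delta constant UMI, to 0.34 in Trdc cells and to 0.66 without the highest cells; Acsl4 turned to 0.072 in Trdc cells. The causes were not tested, beyond the smaller numbers of UMIs. Of 119 named genes, 101 stayed within their counting interval with Trdc cells only and 116 without the highest cells. No paired analysis was possible because each genotype has 1 library. Below 6.50 and 10.2 CPM, absence cannot be told from depth.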
